A study of Homo sapiens with 7 samples.

Results

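The APOBEC3 genes are 7 neighbouring human genes for cytidine deaminases, APOBEC3A, APOBEC3B, APOBEC3C, APOBEC3D, APOBEC3F, APOBEC3G and APOBEC3H. They were taken by symbol from a table of 63677 genes, and each symbol led to 1 row with counts. A further row named APOBEC3A had 0 counts in every library and was left aside. RNA had been sequenced from T47D, an estrogen receptor-positive breast cancer cell line, in 7 libraries, 3 from palbociclib-sensitive parental cells and 2 each from the resistant lines clone 4 and clone 2. Palbociclib inhibits the cell cycle kinases CDK4 and CDK6. Per the labels' protocols, resistant cells had been kept for 6 months in rising palbociclib, from 1 uM to 5 uM. They were then maintained in palbociclib, and experiments were done without the drug unless stated otherwise. All lines grew in the same medium, with insulin, EGF and hydrocortisone. Each clone is a separate line, so a difference from parental cells belongs to that line, and resistance, past drug exposure and chance differences between clones cannot be told apart.

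APOBEC3 enzymes turn cytosine into uracil in single-stranded DNA and are part of innate defence. They restrict retroviruses and mobile retroelements by mutating their newly copied DNA and by blocking the copying itself. In breast and other cancers APOBEC3A and APOBEC3B are known as sources of C-to-T and C-to-G changes in the tumour genome. Transcription of several members is known to respond to interferon, while that of APOBEC3B is known to be held down by p53 and by E2F and DREAM repressor complexes, and raised by non-canonical NF-kB.

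The genes lie head to tail on the plus strand of chromosome 22, over 151.3 kb in GENCODE release 29 on GRCh38. APOBEC3A comes first, annotated at chr22:38952741-38992778, followed by APOBEC3B at chr22:38982347-38992804. The annotated APOBEC3A thus runs over APOBEC3B, and 18.4% of the exon bases of APOBEC3B are also exon bases of APOBEC3A. APOBEC3F, the fifth gene, lies at chr22:39040604-39053910. These coordinates are not those of the hg19 build named for the counts, and GENCODE 29 is not known to be the annotation behind them.

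Members arose by duplication and still share stretches of sequence, which limits how reads can be assigned to them. The coding stretches of the zinc-binding sites show how alike the members are. They were found as the codons of His-x-Glu, 23 to 28 further residues and Pro-Cys up to the next Cys, and they are printed 5′ to 3′ from GENCODE 29 transcripts. Each lies within 1 exon. APOBEC3A has 1 such site and APOBEC3B 2, and the APOBEC3A site at chr22:38961420-38961530 and the second APOBEC3B site at chr22:38991365-38991475 are the same in all 111 bases. That shared stretch is the following.
APOBEC3A and second site of APOBEC3B: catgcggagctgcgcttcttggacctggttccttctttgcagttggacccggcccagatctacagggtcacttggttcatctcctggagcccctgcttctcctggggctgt
The first sites of APOBEC3F, at chr22:39044962-39045066, and APOBEC3B, at chr22:38985833-38985937, are the same in all 105 bases. They differ from the first site of APOBEC3D, at chr22:39025091-39025195, at 13 positions, which are in capitals.
First site of APOBEC3F and APOBEC3B: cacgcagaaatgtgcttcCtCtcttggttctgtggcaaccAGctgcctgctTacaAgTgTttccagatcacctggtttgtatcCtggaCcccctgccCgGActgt
First site of APOBEC3D: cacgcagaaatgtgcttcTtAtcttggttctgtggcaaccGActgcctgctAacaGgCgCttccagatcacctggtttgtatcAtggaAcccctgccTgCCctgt
The second sites of APOBEC3F, at chr22:39052095-39052199, and APOBEC3D, at chr22:39031715-39031819, are again the same, and differ from the APOBEC3C site, at chr22:39017787-39017891, at the 4 positions in capitals.
Second site of APOBEC3F and APOBEC3D: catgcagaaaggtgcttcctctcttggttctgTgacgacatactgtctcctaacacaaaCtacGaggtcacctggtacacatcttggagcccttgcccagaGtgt
APOBEC3C site: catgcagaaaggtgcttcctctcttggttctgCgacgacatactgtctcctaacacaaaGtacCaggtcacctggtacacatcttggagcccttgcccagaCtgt

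Over whole transcripts, 24.2% of the 50-base words of APOBEC3F occur exactly in a transcript of another gene, most often APOBEC3G. The share was 39.6% for APOBEC3B, 29.2% for APOBEC3A and 19.1% for APOBEC3G. It was 88.4% for APOBEC3D, mostly with AL022318.4, whose exons cover 83.2% of its exon bases. APOBEC3C shared 1.16% and APOBEC3H 0 of 974 words. Most words of APOBEC3B and APOBEC3F are thus their own, but reads from shared stretches may have been dropped or moved between members. Neither the read length nor the counting program was known, so this could not be measured.

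Parental libraries held 12436758 to 17524621 counts, clone 4 libraries 12593774 and 14739350, and clone 2 libraries 10997625 and 15677914. All 8 luminal markers were detected in each library, among them the keratins KRT8 and KRT18 and the estrogen receptor gene ESR1. Levels are given as CPM, counts divided by TMM-scaled library size, and those of the luminal markers summed to 13950 to 17620 in parental cells, 11240 and 12580 in clone 4, and 10170 and 9716 in clone 2. Of these markers 1 was higher and 2 lower in clone 4 against parental cells, and 4 fell in clone 2. Over all genes tested 22.1% were called higher and 22.3% lower in clone 4, and 20.8% lower in clone 2. Whether the biological replicates of the labels were separate cultures is unstated, so p-values measure the spread between these libraries, which may be technical. The clone 2 libraries differed from each other least, with a chi-square over genes, divided by its degrees of freedom, of 1.5 against 5.48 to 17.5 for other pairs of a group.

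Most APOBEC3 reads in T47D came from APOBEC3B. It had 527, 720 and 747 counts in the parental libraries, 813 and 651 in clone 4, and 480 and 651 in clone 2. APOBEC3F came next with 33, 21 and 24 counts in the parental libraries, 116 and 81 in clone 4, and 60 and 89 in clone 2. The other 5 members stayed below 10 counts in every library. Only APOBEC3B and APOBEC3F passed the filter on low counts and were tested, so no count over the tested genes describes the whole family.

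**Figure D1:**
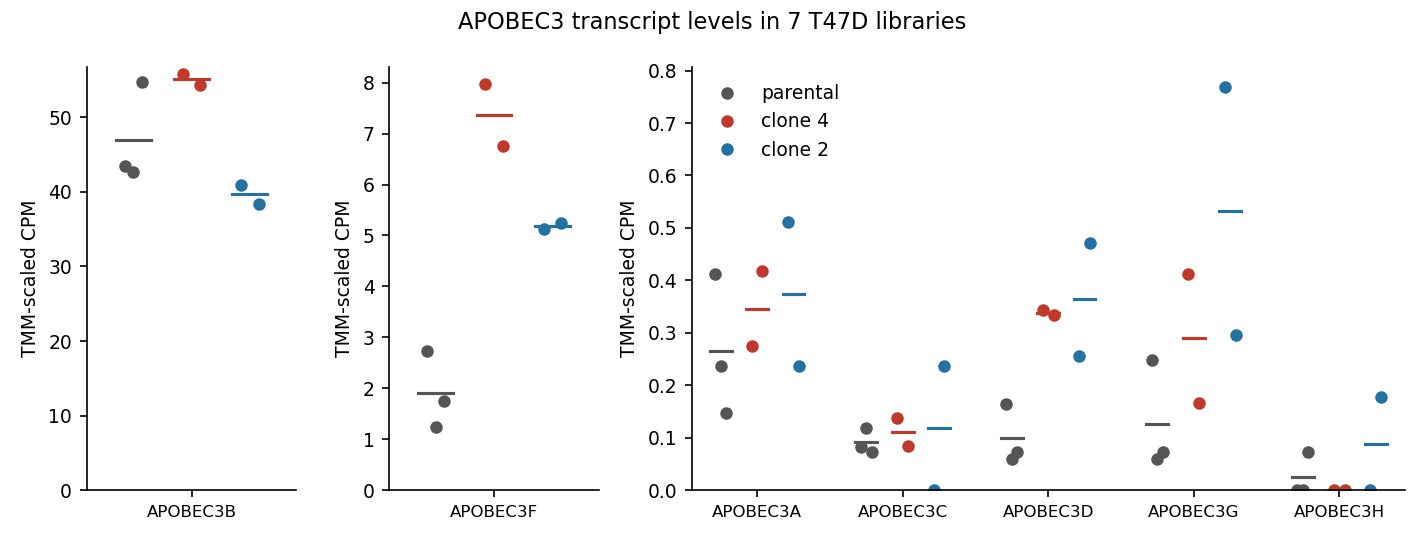
TMM-scaled CPM (y axes, linear, with a separate scale in each panel) of the 7 APOBEC3 genes in each library, with points for libraries and bars for group means. Both clones lie above all parental libraries for APOBEC3F, while APOBEC3B in clone 2 lies at 41.0 and 38.4 CPM, below every parental and clone 4 library.

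Per kilobase of transcript, APOBEC3B was at 25.5 ± 3.7 CPM (SD, n = 3) in parental cells, 29.9 ± 0.58 (SD, n = 2) in clone 4 and 21.5 ± 0.98 (SD, n = 2) in clone 2. APOBEC3F was at 0.709 ± 0.28, 2.73 ± 0.32 and 1.93 ± 0.034 CPM per kilobase in the same groups. APOBEC3B therefore exceeded APOBEC3F per kilobase 23.3-fold to 50.1-fold in the parental libraries and 10.2-fold to 11.7-fold in the 4 clone libraries. No other member was above 0.419 CPM per kilobase in any library, and the order among those 5 changed from library to library. With so few counts this order was not resolved.

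**Figure D2:**
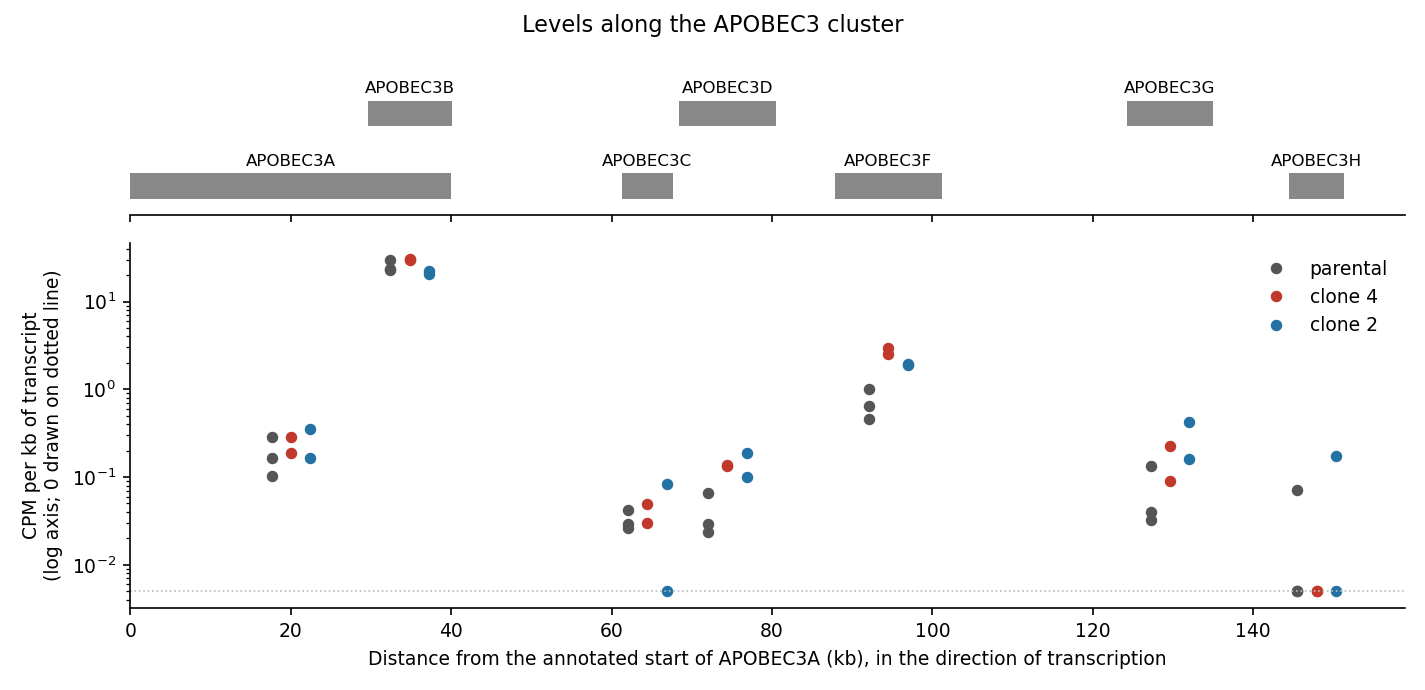
Positions of the 7 genes (upper panel, GENCODE 29 extents, in kb from the annotated start of APOBEC3A) and their CPM per kb of transcript in each library (lower panel, log axis, 0 drawn on the dotted line). APOBEC3B and APOBEC3F stand above the other members in all 7 libraries.

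APOBEC3F rose in both resistant clones. Its product is a cytoplasmic restriction factor with a pair of zinc-binding domains that enters retroviral particles and mutates the viral DNA in the next cell. Its level was 2.72, 1.25 and 1.76 CPM in the parental libraries, 7.97 and 6.76 CPM in clone 4, and 5.12 and 5.25 CPM in clone 2. All 4 clone libraries lay above all 3 parental libraries, and parental replicate 1 was the highest of its group. Against parental cells the log2 fold change was 1.99 in clone 4 (SE 0.26, 95% interval 1.44 to 2.54, edgeR adjusted p = 3.69e-05), a 3.97-fold difference. In clone 2 it was 1.48 (SE 0.27, 95% interval 0.91 to 2.05, edgeR adjusted p = 0.000585), a 2.79-fold difference. These are calls on a wide background, since 44.4% of the 17502 genes tested were called in clone 4 and 42.5% in clone 2, with 22.1% and 21.7% called higher. Among the members tested, 1 of 2 was called higher in each clone. By size, 2.66% of the genes tested had a higher log2 fold change than APOBEC3F in clone 4 and 5.95% in clone 2. Both comparisons use the same parental libraries and are not independent of each other.

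Between the clones APOBEC3F differed by a log2 fold change of -0.51, clone 2 against clone 4 (SE 0.25, 95% interval -1.05 to 0.03), and was not called (edgeR adjusted p = 0.128). A fit of both clones alone did call it (-0.54, edgeR adjusted p = 0.0402). Of all counts on APOBEC3 genes, APOBEC3F took from 2.80% (95% Wilson interval 1.84 to 4.25) to 5.78% (4.14 to 8.01) in the parental libraries. In the clone libraries it took from 10.8% (8.45 to 13.6) to 12.3% (10.3 to 14.5). Intervals of shares and of count ratios cover counting error only.

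Markers of other cell types were read beside this rise. Of 14 leukocyte markers, 5 to 8 were at 0 in each library, CD2 and TYROBP in all 7. Their summed level was 3.795 to 5.57 CPM in parental cells, 5.84 and 4.17 in clone 4, and 6.997 and 6.903 in clone 2. Only 3 of the list were testable. With edgeR 0 of these 3 were called in clone 4 and 0 in clone 2, against 0 and 1 at an unadjusted p below 0.05, and with DESeq2 0 in both. Fibroblast markers summed to 40.2 to 42.4 CPM in parental cells, 71.6 and 104 in clone 4 and 238 and 214 in clone 2. Nearly all of this sum in clone 4 was COL1A1, at 71.4 and 104 CPM. Of the 6 markers 4 were testable. COL3A1, LUM and DCN passed the filter on low counts only through the clone 2 libraries, where they were high. Called higher were 1 in clone 4 and 4 in clone 2, counts that depend on that filter. The medians of -1.08 and 2.63 depend on it too. Over all genes tested 22.1% were called higher in clone 4 and 21.7% in clone 2. COL1A1 rose in both clones, and COL3A1, LUM and DCN rose in clone 2. In clone 4 LUM was at -2.19 and DCN at -0.31, not called, and COL3A1 had no counts. COL1A2, not tested, had 9 counts over the parental libraries, 0 over those of clone 4 and 5 over those of clone 2. PDGFRB was at 0 in 6 of the 7 libraries. The part of such transcripts in the level of APOBEC3F was not tested. In bulk RNA, fewer cells of a type and less RNA per cell cannot be told apart.

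APOBEC3B, whose nuclear product is a main source of deaminase activity in many breast cancer lines, was lower in clone 2 than in clone 4. Its level was 43.5, 42.7 and 54.8 CPM in the parental libraries, 55.9 and 54.3 CPM in clone 4, and 41.0 and 38.4 CPM in clone 2. Parental replicate 3 lay within the range of clone 4, while clone 2 lay below the other 5 libraries. Clone 2 against clone 4 gave a log2 fold change of -0.48 (SE 0.13, 95% interval -0.76 to -0.19, edgeR adjusted p = 0.0132), a ratio of 0.719. In this comparison 36.5% of all genes tested were called, 17.0% as lower and 19.6% as higher in clone 2, and 1 of the 2 members tested was called lower. The call was lost without clone 2 replicate 1 (-0.52, edgeR adjusted p = 0.0600) and without clone 2 replicate 2 (-0.42, edgeR adjusted p = 0.129).

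Against parental cells APOBEC3B was not called in either clone. The log2 fold change was 0.23 in clone 4 (SE 0.12, 95% interval -0.03 to 0.49, edgeR adjusted p = 0.135) and -0.24 in clone 2 (SE 0.12, 95% interval -0.51 to 0.02, edgeR adjusted p = 0.125). Without parental replicate 3 it was called higher in clone 4 (0.35, edgeR adjusted p = 0.0122). Adding the counts of APOBEC3A, whose sequence it shares, left these log2 fold changes at 0.23 and -0.24.

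A transcript from the opposite strand, APOBEC3B-AS1, overlaps the end of APOBEC3B and was examined after its values were seen. It had 189, 304 and 355 counts in the parental libraries, 426 and 354 in clone 4, and 172 and 285 in clone 2. Of its 691 exon bases, 35.3% are exon bases of APOBEC3B in GENCODE 29. It was higher in clone 4 than in parental cells (log2 fold change 0.56, SE 0.17, edgeR adjusted p = 0.0171) and lower in clone 2 than in clone 4 (-0.90, SE 0.19, edgeR adjusted p = 0.00298). In clone 2 against parental cells it was at -0.33 and not called (edgeR adjusted p = 0.159). Its counts were 35.9% to 47.5% of those of APOBEC3B in parental cells, 52.4% and 54.4% in clone 4, and 35.8% and 43.8% in clone 2. No strand setting is given, so reads of APOBEC3B and its antisense partner in the shared bases cannot be told apart. With the counts of both summed, clone 4 was called above parental cells (0.34, edgeR adjusted p = 0.0436).

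APOBEC3D and APOBEC3G, restriction factors that like APOBEC3F are packaged into retroviral particles, had few reads. For APOBEC3D, reads in the 83.2% of its exon bases shared with AL022318.4 may have been dropped or moved, which could not be measured. APOBEC3D had 2, 1 and 1 counts in the parental libraries, 5 and 4 in clone 4, and 3 and 8 in clone 2. Scaled for depth, all 4 clone libraries lay above the 3 parental ones. The ratio of counts scaled for depth was 3.61 in clone 4 (95% interval 1.01 to 16.1) and 4.09 in clone 2 (95% interval 1.21 to 17.6). APOBEC3G had 3, 1 and 1 counts in the parental libraries, 6 and 2 in clone 4, and 9 and 5 in clone 2. Its ratio was 2.57 in clone 4 (95% interval 0.741 to 9.98), where the groups overlapped, and 4.16 in clone 2 (95% interval 1.42 to 14.8), where they did not. With no filter beyond 1 count, edgeR gave adjusted p = 0.200 for APOBEC3D in clone 4 and 0.122 in clone 2, and 0.404 and 0.0589 for APOBEC3G. None of these values passed the threshold of 0.05. APOBEC3G is a lymphocyte gene by its usual expression, and the summed leukocyte markers given above were also highest in clone 2, a relation that was not tested.

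APOBEC3A, an interferon-responsive deaminase of myeloid cells, had 5, 4 and 2 counts in the parental libraries, 4 and 5 in clone 4, and 6 and 4 in clone 2. The ratio to parental cells was 1.31 in clone 4 (95% interval 0.481 to 3.49) and 1.35 in clone 2 (95% interval 0.515 to 3.51), and the groups overlapped. APOBEC3C, a deaminase with a lone zinc-binding domain that acts on retroelements, had summed counts of 4 for parental cells, 3 for clone 4 and 4 for clone 2. APOBEC3H, whose human variants differ in protein stability, had 1, 0 and 3 counts in the same groups. For these 3 genes a difference was not detectable at this depth. A count of 3 corresponds to 0.177 to 0.256 CPM in these libraries. Of related deaminase genes outside the cluster, APOBEC1 had 0 counts in every library and APOBEC2 up to 4 in any library. APOBEC4, not tested, had 5, 10 and 1 counts in the parental libraries, 0 and 1 in clone 4, and 0 and 0 in clone 2.

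Genes beside the cluster went both ways. Among the 5 nearest on each side with a row in the table, 6 were testable, and 4 had 42 counts or fewer in all. CBX6 and CBX7, which encode Polycomb chromatin proteins and flank the cluster on either side, rose in clone 4 by 0.47 (SE 0.12) and 0.34 (SE 0.12) on the log2 scale. Their edgeR adjusted p-values were 0.00621 and 0.0291. In clone 2 they were at 0.15 and 0.02 and not called, and the difference between the clones was not called either (edgeR adjusted p = 0.0737 and 0.0616). PDGFB, a growth factor, fell by 0.70 on the log2 scale in clone 4 (SE 0.11) and was at -0.06 in clone 2. SUN2, a protein of the nuclear envelope, fell in both clones, with log2 fold changes of -0.87 (SE 0.10) and -0.34 (SE 0.10). NPTXR, a synaptic protein, was at 0.15 and -0.12, and DNAL4, a dynein light chain, at -0.24 and -0.25, all without a call. The remaining 4 were CTA-150C2.13, COX5BP7, FUNDC2P4 and RP3-333H23.8.

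The genes whose profile lay closest to that of APOBEC3F were ranked by distance in log2 CPM, centred on the parental mean, over the 7 libraries. Of 12222 genes ranked, the nearest was IFIH1, the RNA sensor MDA5, at a distance of 0.645. PLSCR1, a phospholipid scramblase, followed at 0.700, DGAT2, an enzyme of triglyceride synthesis, at 0.878, and UBE2L6, the conjugating enzyme for ISG15, at 0.880. Their log2 fold changes lay between 1.71 and 1.89 in clone 4 and between 1.44 and 1.80 in clone 2. For APOBEC3B the nearest were SSB, which binds new RNA polymerase III transcripts, at 0.106, and the exosome subunit EXOSC9 at 0.114. The proteasome ATPase PSMC2 and the nuclear migration protein NUDC lay at 0.120 and 0.123. With only 3 groups, many genes can lie near a given profile, and the distances are given as a description.

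**Figure D3:**
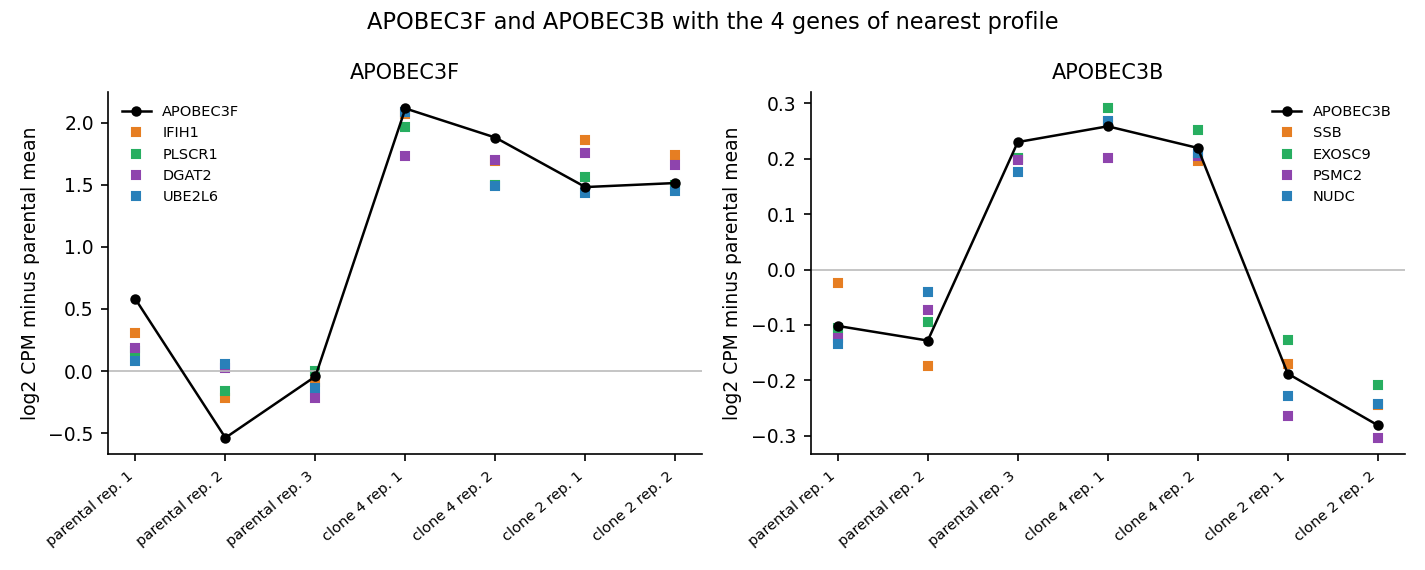
Log2 CPM minus the parental mean (y axes, different scales) in each library (x axes) for APOBEC3F and APOBEC3B (black lines) and the 4 genes nearest to each (coloured squares). APOBEC3F and its neighbours in profile stand above 1.4 in all 4 clone libraries, while APOBEC3B stays within 0.3 of 0.

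Of the genes that carry the interferon signal to the nucleus, 6 of 9 were called higher in each clone. A further 1 fell in clone 4, and over all genes tested 22.1% were called higher in clone 4 and 21.7% in clone 2. The receptor chains IFNAR1 and IFNAR2 were at -0.01 and 0.43 in clone 4 and at -0.13 and 0.03 in clone 2, and neither was called. The median log2 fold change over the list was 0.66 in clone 4 and 1.24 in clone 2. The medians over all genes tested were 0.01 and 0.02. IRF9, a DNA-binding factor of the interferon response, rose by 3.79 (SE 0.30) in clone 4 and by 3.74 (SE 0.30) in clone 2. It passed the filter on low counts only through the clone libraries, so its calls are not independent of that filter. IRF7 and IRF1, factors of the same family, rose by 2.88 and 2.06 in clone 4, and by 2.01 and 2.23 in clone 2. JAK1, a kinase of the receptors, was the gene that fell in clone 4 (-0.89, SE 0.11) and was at 0.07 in clone 2, not called. TYK2, the other receptor kinase on the list, rose by 0.53 (SE 0.12) in clone 4 and by 1.24 (SE 0.12) in clone 2. JAK1, TYK2, IFNAR1 and IFNAR2 were chosen after their values were seen.

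Of 5 NF-kB subunits, 2 rose in clone 4 and 3 in clone 2, where 22.1% and 21.7% of all genes tested were called higher. The non-canonical subunits NFKB2 and RELB, which are known to drive APOBEC3B transcription, rose in clone 4 by 1.5 (SE 0.10) and 1.35 (SE 0.17) on the log2 scale. In clone 2 they rose by 0.73 (SE 0.10) and 1.16 (SE 0.17). NFKB1 rose in clone 2 by 0.85 (SE 0.16) and was at 0.16 in clone 4, not called. Between the clones, 2 of the 5 were called higher and 1 lower in clone 2, beside 19.6% and 17.0% over all genes tested. NFKB2 was lower in clone 2 than in clone 4 (-0.78, SE 0.11, edgeR adjusted p = 0.000169). NFKB1 (0.69, edgeR adjusted p = 0.00833) and REL (1.43, edgeR adjusted p = 0.0153), named after its value was seen, were higher there, and RELB was at -0.19 and not called. The median over these 5 genes was 0.16 in clone 4 and 0.73 in clone 2.

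The E2F, RB and DREAM genes went both ways, with 3 of 14 higher and 4 lower in clone 4, and 3 higher and 5 lower in clone 2. Over all genes tested the shares were 22.1% and 22.3% in clone 4, and 21.7% and 20.8% in clone 2. The medians were -0.01 and -0.02. RB1, the pocket protein that represses E2F targets, was at 49.6 to 58.1 CPM in parental cells, 0.137 and 0.250 in clone 4, and 28.3 and 29.1 in clone 2, with log2 fold changes of -8.13 (SE 0.25) in clone 4 and -0.94 (SE 0.12) in clone 2. RBL2, the pocket protein of DREAM in resting cells, fell by 1.21 on the log2 scale in clone 4 and by 0.40 in clone 2, and TFDP1, the E2F partner, by 1.87 and 1.03. E2F1 rose by 0.76 (SE 0.11) in clone 4 and was at 0.20 in clone 2, not called.

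**Figure D4:**
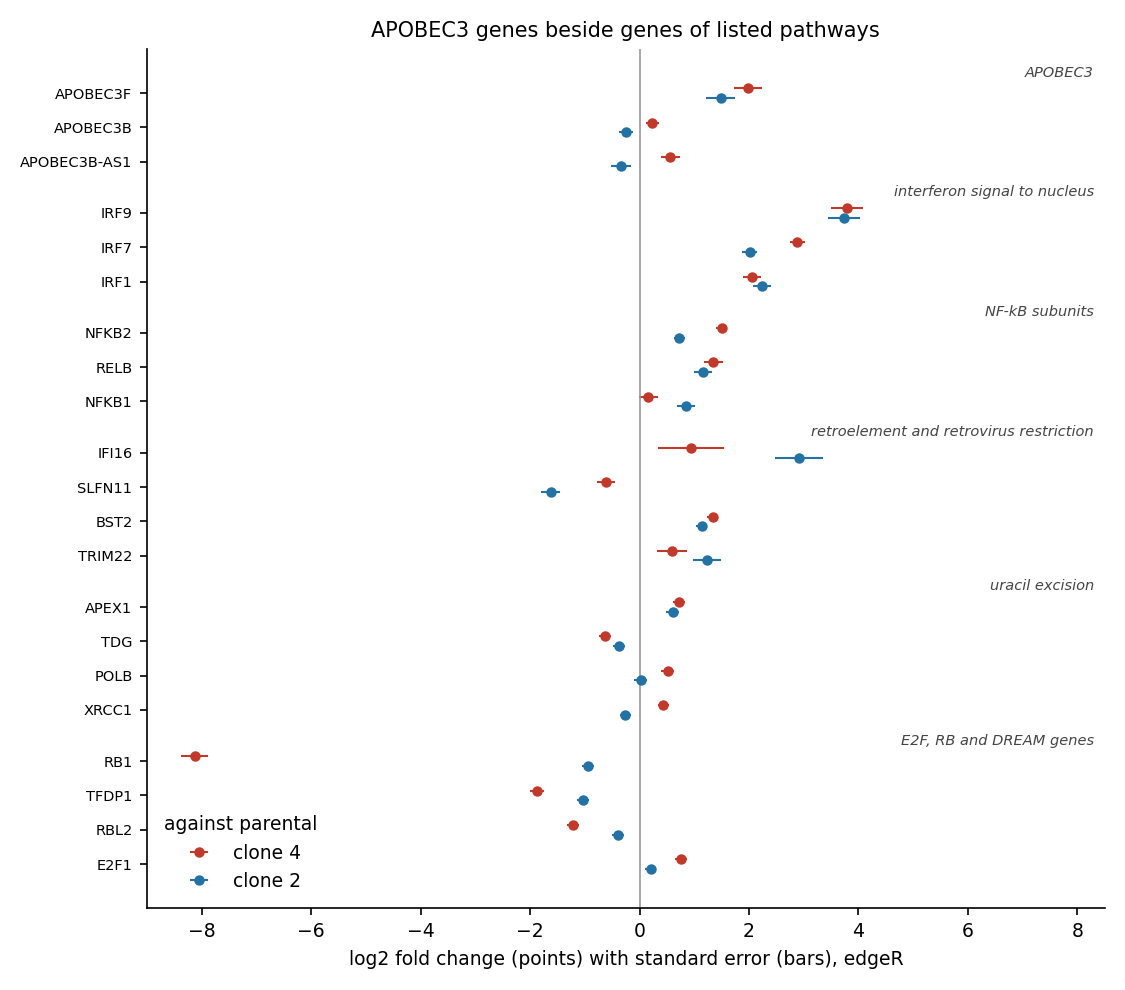
Log2 fold changes against parental cells (points, x axis) with standard errors (bars) from edgeR for the tested APOBEC3 genes, APOBEC3B-AS1 and the named genes of 5 lists. APOBEC3F lies at 1.99 and 1.48, beside 2.06 and 2.23 for IRF1, while APOBEC3B lies at 0.23 and -0.24.

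Other factors that restrict retroviruses and retroelements were higher in part. Of 12 listed, 5 rose and 1 fell in clone 4, and 6 rose and 1 fell in clone 2. Over all genes tested 22.1% were called higher and 22.3% lower in clone 4, and 21.7% and 20.8% in clone 2. The median log2 fold changes were 0.59 and 0.35. BST2, which tethers budding virus particles, rose by 1.33 (SE 0.10) in clone 4 and 1.14 (SE 0.10) in clone 2. IFI16, a nuclear DNA sensor, rose in clone 2 from 0.207 ± 0.038 (SD, n = 3) to 1.65 ± 0.080 CPM (SD, n = 2), and TRIM22 by a log2 fold change of 1.23 (SE 0.25). In clone 4 these were at 0.94 (SE 0.60) and 0.59 (SE 0.27), not called. IFI16 passed the filter on low counts only through the clone 2 libraries, so its call there is not independent of that filter. SLFN11, which also blocks stressed replication forks, fell by 0.62 and by 1.62 on the log2 scale in clone 4 and clone 2.

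Uracil left in DNA by deaminases is removed by base excision repair. The 9 genes listed include REV1, a polymerase outside this repair path, which was not called in either clone. Of the 9, 4 rose and 1 fell in clone 4, and 1 rose and 1 fell in clone 2, with medians of 0.13 and 0.02. Beside them, 22.1% of all genes tested were called higher and 22.3% lower in clone 4, and 21.7% and 20.8% in clone 2. APEX1, the nuclease that cuts at the emptied site, rose by 0.72 (SE 0.12) in clone 4 and by 0.61 (SE 0.12) in clone 2 on the log2 scale. TDG, a glycosylase for uracil and thymine opposite guanine, fell by 0.63 and 0.37 on the log2 scale. POLB and XRCC1, the gap-filling polymerase and a repair scaffold, rose in clone 4 by 0.52 (SE 0.12) and 0.44 (SE 0.10), and were at 0.03 and -0.26 in clone 2, not called.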

How the data were processed

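The deposited table holds raw whole-number read counts per Ensembl gene for 7 libraries, and all 7 columns of values match a labelled library. Per the submitters' processing notes, the authors used FastQC, CASAVA and STAR, without versions, with the hg19 build. No counting program, annotation release or strand setting is given in the sources used here. The 6724 genes without a name took 1.02% to 1.41% of the counts per library. The replicate numbers are those of the labels, although the titles of clone 2 replicates 1 and 2 carry 4 and 6.

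The analysis used edgeR 4.0.16 under R 4.3.3. Genes passing filterByExpr (minimum count 10) were kept, 17502 in all. After TMM scaling, 1 robust quasi-likelihood fit took all 7 libraries, with a mean for each of the 3 groups. Calls required an adjusted p below 0.05, by Benjamini-Hochberg over every gene in the fit. Standard errors come from the quasi-F statistic, and 95% intervals use its degrees of freedom. Ratios of low counts have exact binomial intervals at 95%, and log2 CPM profiles added 0.5 to each count. The biological coefficient of variation was 0.0997. The fit was tested on simulated data with known changes.

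The members and gene lists were chosen with earlier results of these data known. All members are named, as are the 5 nearest genes on each side, the 4 genes nearest in profile (mean of at least 2 log2 CPM), and up to 4 called members of each pathway list with the largest change. Some listed genes are not reported here. Alternatives comprised DESeq2 1.42.0, RLE scaling, dropping the filter (1 count sufficed), requiring 1 CPM in each library of a group plus 50 counts in total, fits of only the groups compared, a replicate block, summed counts of APOBEC3A and APOBEC3B, and leaving out each library.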

Additional observations from a re-analysis of the deposited data

Results flagged for a closer look

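APOBEC3B was flagged because its change against parental cells differed between the clones by a test of the difference itself. That test called 36.5% of all genes tested, 17.0% as lower in clone 2, so a call is not particular to APOBEC3B. The call was lost without clone 2 replicate 1 (-0.52) and without clone 2 replicate 2 (-0.42). The log2 fold change of clone 2 against clone 4 was -0.48 (edgeR adjusted p = 0.0132, lower in both clone 2 libraries than in both clone 4 libraries), with 0.23 in clone 4 and -0.24 in clone 2 against parental cells, where neither was called.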

How the results depend on the processing

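APOBEC3F was called higher in both clones under every alternative run, with log2 fold changes from 1.73 to 2.31 in clone 4 and from 1.22 to 1.80 in clone 2. The members called higher in clone 4 were 1 in the analysis as reported and 2 with the replicate block and with APOBEC3B and APOBEC3B-AS1 summed, an alternative chosen after seeing the data. The added member was APOBEC3B in both cases, at 0.35 (edgeR adjusted p = 0.00949) with the block. Without each library in turn they were 1 to 2. The members called lower in clone 2 than in clone 4 were 1 as reported, 2 with only the groups compared, and 0 to 1 without each library. Leaving out 1 library gave 4291 to 7988 genes called in clone 2 against parental cells, where 7443 were reported, and 3289 to 7348 between the clones, where 6396 were. The lowest values came without clone 2 replicate 2, and without clone 2 replicate 1 they were 4631 and 3621. Over the alternatives, edgeR and DESeq2 adjusted p-values of APOBEC3B ran from 0.00949 to 0.334 in clone 4 and from 0.00116 to 0.129 between the clones, and those of APOBEC3F between the clones from 0.0402 to 0.366. Nothing in the labels says that replicate numbers mark a shared batch, and whether they do is not known. Deviations of same-numbered libraries correlated at 0.357 and 0.203 between parental cells and clone 4, and at -0.042 and -0.077 between parental cells and clone 2. Between the clones the value was -0.191. With 2 libraries in each clone it is the same for both numbers by construction. With the numbers of the clones crossed, an alternative chosen after seeing the data, 8169 genes and 2 members were called between the clones. Depth limits the 5 members below 10 counts per library, and for APOBEC3D the exon bases shared with AL022318.4 may limit it too.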
